A study of Mus musculus with 16 samples.

Results

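A set of 10 genes of Notch signalling and of neural progenitors was followed in N25/2, an immortalized line made from embryonic mouse hypothalamus, while the cells were kept without amino acids. They were Lfng, Notch1, Notch2, Jag1, Hes1, Hey1, Nes, Gja1, Vim and Sox2, which is 10 of the 19938 genes measured. Each was taken by its symbol in the array's annotation, and each had 1 row in the deposited table. The genes were chosen by their levels and their differences between deprived and control cells at all 5 times, so these values are given as a description. Where the number of them past the threshold of a fit over all genes is given, it stands beside the share of all genes and supports nothing.

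Deprived cells were kept in medium lacking amino acids, and control cells in medium containing them, both for 1, 2, 3, 5 or 16 h. There were 4 deprived and 4 control arrays at 5 h, and 1 deprived and 1 control array at each other time, 16 arrays in all. The line had been grown in serum-supplemented medium before the treatment. All arrays come from 1 immortalized line, and separate cultures are not mentioned in the labels for the 4 arrays of a group at 5 h, so p-values measure a spread that may be technical. Levels are log2 values from whole-transcript arrays, and every difference is deprived minus control on the log2 scale.

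In Notch signalling, a ligand such as Jagged1 on one cell binds a Notch receptor on its neighbour. The receptor is cut, and its freed inner part joins the DNA-binding protein Rbpj and switches on repressor genes of the Hes and Hey families. Fringe enzymes such as Lunatic fringe, the product of Lfng, add sugars to Notch receptors in the Golgi and so change which ligands they answer to. In the embryonic brain this signalling is known for holding progenitors undifferentiated. Such progenitors express Sox2, a transcription factor, Nes and Vim, which code for the intermediate filaments nestin and vimentin, and Gja1, which codes for the gap junction protein connexin 43.

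Promoters of 8 of the 10 genes were in a RefSeq table (build GRCm38.p6), and Hes1 and Hey1 were not. The windows of Lfng, Notch1 and Jag1 are shown, as the modifier, a receptor and a ligand of the pathway, the last 2 chosen after values were seen. Each runs 5′ to 3′ on the gene's strand, from 250 bases before the start site to 50 after it. Capitals mark matches on either strand to TGGGAA (the core of Rbpj sites), CACGTG (E box), CACGCG (class C box), CACNAG (N box) and TGATGNAA (the core of sites shared by ATF4 and CHOP).
Lfng, chr5:140607091-140607390, + strand: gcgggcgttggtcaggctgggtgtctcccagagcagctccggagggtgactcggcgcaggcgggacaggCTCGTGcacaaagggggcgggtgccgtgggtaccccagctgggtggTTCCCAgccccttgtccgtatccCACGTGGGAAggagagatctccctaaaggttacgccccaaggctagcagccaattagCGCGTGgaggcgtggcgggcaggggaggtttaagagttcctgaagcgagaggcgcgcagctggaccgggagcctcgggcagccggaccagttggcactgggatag
Notch1, chr2:26503773-26504072, - strand: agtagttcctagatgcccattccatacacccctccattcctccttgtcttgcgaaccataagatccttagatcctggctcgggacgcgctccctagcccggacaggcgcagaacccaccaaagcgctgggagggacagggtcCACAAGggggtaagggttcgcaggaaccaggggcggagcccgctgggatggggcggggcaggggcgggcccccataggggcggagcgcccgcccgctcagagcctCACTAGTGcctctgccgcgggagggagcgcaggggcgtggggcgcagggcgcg
Jag1, chr2:137116471-137116770, - strand: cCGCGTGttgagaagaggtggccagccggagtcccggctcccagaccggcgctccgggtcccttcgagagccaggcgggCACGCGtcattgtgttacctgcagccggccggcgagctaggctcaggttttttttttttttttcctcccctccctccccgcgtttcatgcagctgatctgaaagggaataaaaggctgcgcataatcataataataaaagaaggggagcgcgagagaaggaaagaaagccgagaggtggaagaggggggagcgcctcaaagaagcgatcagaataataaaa
The E box of Lfng begins 112 bases before the start site and shares 2 bases with an Rbpj core match that begins 108 bases before it. A further Rbpj core match on the other strand begins 135 bases before the start site. Of the 8 promoters, Lfng alone held the Rbpj core (25.6% of all 32851 promoter windows in the table) and Lfng alone the E box (7.15% of all). The class C box was in Lfng, Notch2 and Jag1 (9.27% of all), and the N box in Lfng, Notch1, Notch2 and Vim (42.5% of all). In Notch1, N boxes on opposite strands overlap at the start site. None of the 8 windows held TGATGNAA, which was in 3.97% of all windows. These are matches of letters, and no binding was measured.

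Lfng was lower in deprived cells at every time, by more at each later one. At 5 h its log2 level was 9.16, 8.88, 9.02 and 9.34 on the deprived arrays, against 10.21, 10.12, 10.18 and 10.18 on the control arrays. The groups did not overlap, and the lowest control array stood well above the highest deprived one. The mean was 9.10 ± 0.19 in deprived cells and 10.17 ± 0.04 in control cells (SD, n = 4 each), a difference of -1.07 (standard error 0.10 from limma), so the deprived level was 52.4% lower. From 1 to 16 h the level in deprived cells was 9.69, 9.43, 9.20, 9.10 (mean of 4) and 7.94. In control cells over the same times it was 9.90, 9.74, 10.14, 10.17 (mean of 4) and 9.92. The control level thus ended near where it began, but it rose from 9.74 to 10.14 between 2 and 3 h. The deprived level fell from 9.43 to 9.20 between these times, so both arrays entered the larger difference at 3 h. At 3 h the deprived level already lay inside the range of the deprived arrays at 5 h. The differences at 1, 2, 3 and 16 h were -0.20, -0.31, -0.94 and -1.98, the last of these a level 74.6% lower.

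**Figure D1:**
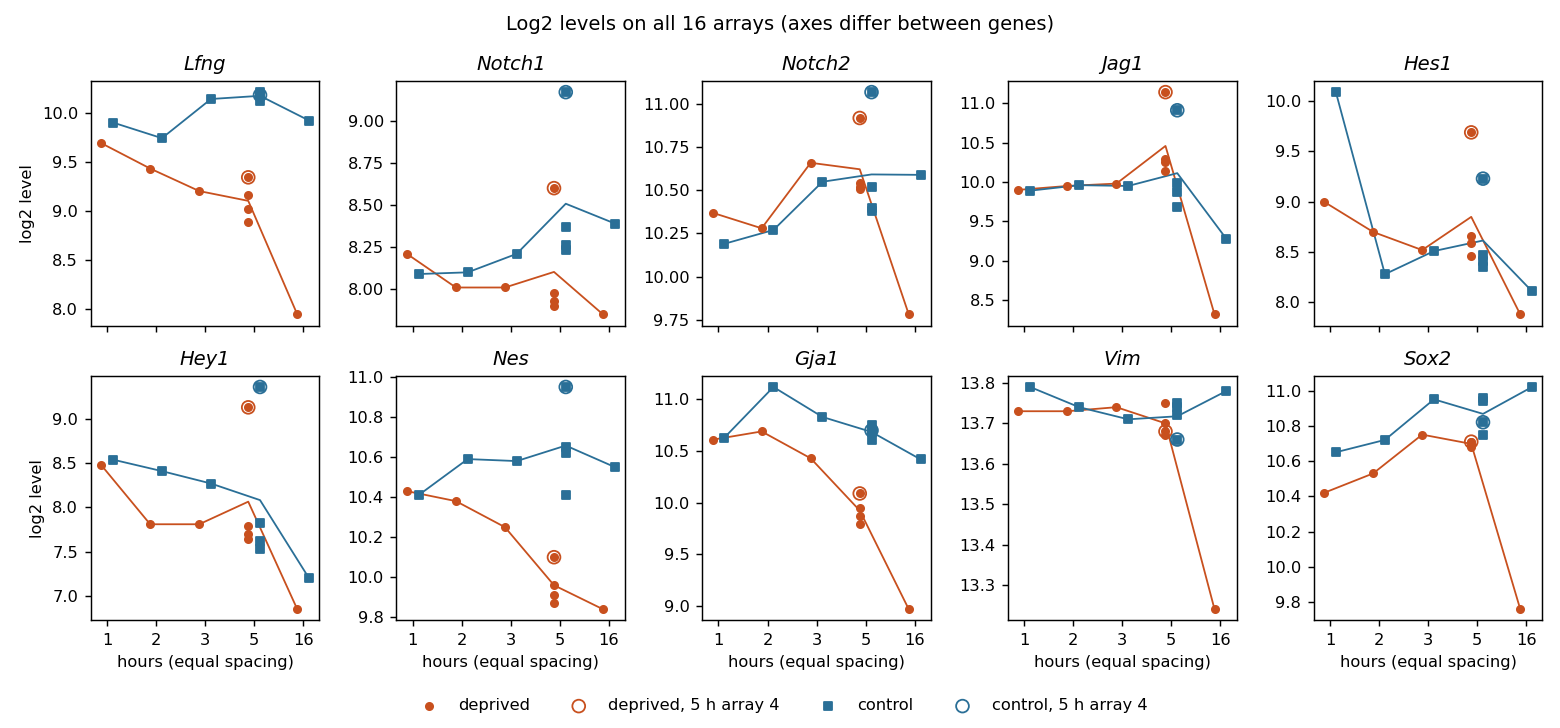
Log2 level of each of the 10 genes on all 16 arrays, by hours of treatment (equally spaced), with deprived cells as circles and control cells as squares, lines through the mean at each time and rings around the 5 h arrays numbered 4. Lfng, Gja1 and Nes separate between the groups by 5 h, and Sox2 does so by a small amount. All 10 genes are lowest on the deprived array at 16 h.

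The 3 genes above the median level whose differences over the 5 times lay nearest to those of Lfng were Tubb2a (mean absolute distance 0.17 on the log2 scale), Serpinb1a (0.19) and Lrrn3 (0.20). The median distance over the 9968 genes compared was 0.89. Tubb2a, a tubulin gene, differed by -1.05 at 5 h and -1.68 at 16 h. Serpinb1a, a protease inhibitor gene, differed by -0.71 and -2.04 at these times. Lrrn3, which codes for a leucine-rich repeat membrane protein, differed by -0.84 and -2.30.

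Of the receptors, Notch1 was somewhat lower in deprived cells at 5 h. At 5 h its level was 7.90, 7.98, 7.93 and 8.60 on the deprived arrays, against 8.23, 8.26, 8.37 and 9.17 on the control arrays. The groups overlapped through deprived array 4, although each deprived array was below the control array of the same number. The difference was -0.40 (standard error 0.23), or -0.35 (0.07) when both arrays numbered 4 were left out. It was -0.18 without control array 4 alone. At 1, 2, 3 and 16 h the differences were 0.12, -0.09, -0.20 and -0.54. Notch2 differed little until 5 h and more at 16 h. At 5 h it averaged 10.62 ± 0.20 in deprived cells and 10.59 ± 0.33 in control cells (SD, n = 4 each), a difference of 0.03 (standard error 0.16). At 16 h its level was 9.78 on the deprived array and 10.59 on the control array, a difference of -0.80.

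Jag1, which codes for the ligand Jagged1, was higher in deprived cells at 5 h within each pair of like-numbered arrays and lower at 16 h. Its level at 5 h was 10.29, 10.14, 10.26 and 11.14 on the deprived arrays, against 9.68, 9.87, 9.99 and 10.91 on the control arrays. The groups overlapped because control array 4 was above 3 of the deprived arrays. The mean was 10.46 ± 0.46 in deprived cells and 10.11 ± 0.54 in control cells (SD, n = 4 each). The difference was 0.35 (standard error 0.29), and 0.38 (0.09) without both arrays numbered 4. It was 0.12 without deprived array 4 alone and 0.61 without control array 4 alone. At 1, 2 and 3 h the differences were 0.01, -0.01 and 0.03, the first 2 changing sign when array medians were set equal. At 16 h the level was 8.32 on the deprived array and 9.28 on the control array, a difference of -0.96.

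The repressor genes Hes1 and Hey1, targets of Notch signalling, showed no steady difference over the times. For Hes1 the levels at 1, 2, 3 and 16 h were 9.00, 8.70, 8.52 and 7.88 on the deprived arrays, against 10.09, 8.28, 8.51 and 8.11 on the control arrays. The 1 h control array held the highest Hes1 level of all 16 arrays, so that the 1 h difference was -1.08. Those at 2, 3 and 16 h were 0.42, 0.01 (-0.02 with array medians set equal) and -0.24. Among all genes, 0.105% were lower by 1 or more at 1 h, with 1 array in each group and no replicate check. At 5 h Hes1 was at 8.66, 8.46, 8.59 and 9.69 on the deprived arrays, against 8.41, 8.47, 8.35 and 9.23 on the control arrays. The groups overlapped, and the difference was 0.23 (standard error 0.28), or -0.05 without deprived array 4 alone and 0.44 without control array 4 alone.

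Hey1 was lower at later times in both groups, apart from the 5 h arrays numbered 4. Its levels at 1, 2, 3 and 16 h were 8.48, 7.81, 7.81 and 6.85 on the deprived arrays, against 8.54, 8.41, 8.27 and 7.20 on the control arrays. At 5 h it was 7.79, 7.64, 7.70 and 9.13 on the deprived arrays, against 7.82, 7.53, 7.62 and 9.36 on the control arrays. The 5 h difference was -0.02 (standard error 0.45), which changed sign under both other scalings, and it ranged from -0.37 when deprived array 4 was left out to 0.41 when control array 4 was. The differences at 2 and 3 h were -0.61 and -0.46, and at 16 h -0.35.

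Among the progenitor genes, Gja1 and Nes were lower in deprived cells by 5 h. Gja1 was at 9.87, 9.95, 9.79 and 10.09 on the deprived arrays at 5 h, against 10.75, 10.68, 10.61 and 10.70 on the control arrays. The groups did not overlap, and the difference was -0.76 (standard error 0.08), a level 41.0% lower. The differences of Gja1 at 1, 2, 3 and 16 h were -0.03, -0.43, -0.40 and -1.45. At 16 h the deprived array was at 8.97 and the control array at 10.42. Nes was at 9.91, 9.96, 9.87 and 10.10 on the deprived arrays at 5 h, against 10.62, 10.65, 10.41 and 10.95 on the control arrays. These groups did not overlap either, and the difference was -0.69 (standard error 0.12), a level 38.2% lower. For Nes the differences at 1, 2 and 3 h were 0.02, -0.21 and -0.32, and that at 16 h was -0.72, close to the 5 h value.

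Sox2 and Vim differed most at 16 h, when the differences of all genes were also more spread. At 5 h Sox2 was at 10.71, 10.69, 10.68 and 10.71 on the deprived arrays, against 10.94, 10.96, 10.75 and 10.82 on the control arrays. All deprived arrays were below all control arrays, but by a small amount, with a difference of -0.17 (standard error 0.07). The difference was between -0.23 and -0.19 at 1, 2 and 3 h and reached -1.27 at 16 h, where the level was 9.76 on the deprived array and 11.02 on the control array. Vim averaged 13.70 ± 0.03 in deprived cells and 13.72 ± 0.04 in control cells at 5 h (SD, n = 4 each), a difference of -0.02 that was 0.01 with array medians set equal. At 16 h Vim was at 13.24 on the deprived array and 13.78 on the control array, a difference of -0.54. At that time the lowest 5% of all genes lay below -0.74 and the highest 5% above 0.71. At 3 h, also with 1 array per group, these limits were -0.31 and 0.31. The 16 h value of Vim thus lay inside the limits, and that of Sox2 outside them.

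**Figure D2:**
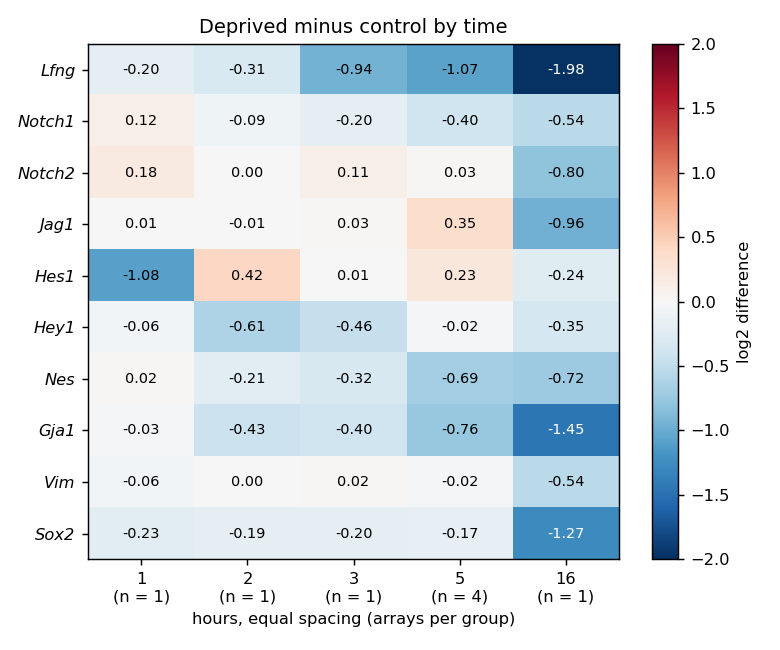
Deprived minus control on the log2 scale for the 10 genes (rows) at each time (columns), with 4 arrays per group at 5 h and 1 array per group at the other times. Lfng goes from -0.20 at 1 h to -1.98 at 16 h, and the whole 16 h column is negative.

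Across the 10 genes, every deprived array was below every control array at 5 h for 4 (Lfng, Nes, Gja1 and Sox2) and above for none, against 5.38% of all genes below and 5.15% above. In limma's fit over all genes, 3 of the 10 (Lfng, Nes and Gja1) had an adjusted p under 0.05, against 4.11% of all genes, or 820. With the array number as a block these were 5 of 10 (also Notch1, lower, and Jag1, higher), against 18.2% of all genes, and without both arrays numbered 4 they were the same 5, against 13.5%. Since the genes were picked with this contrast known, nothing is read from these shares. The median difference of the 10 genes at 1, 2, 3, 5 and 16 h was -0.04, -0.14, -0.20, -0.09 and -0.76. Over all genes the medians were 0.01, -0.01, 0.02, -0.01 and -0.04.

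At 16 h all 10 genes were lower on the deprived array, as were 56.2% of all genes, and 3 (Lfng, Gja1 and Sox2) were lower by 1 or more, as were 2.97% of all genes. For all 10, the deprived array at 16 h held the lowest level of the 16 arrays, which was so for 12.6% of all genes. All 10 have a mean level above the median of all genes. The shares among such brighter genes alone are not given, so nothing is read from these counts. The sign of the 16 h difference changed for none of the 10 under the other scalings. Those of Notch1, Hes1, Hey1, Nes and Vim lay between -0.74 and 0.71, the limits given above for all genes at 16 h. In control cells, relative to the mean of 1, 2 and 3 h, the 16 h control array was lower by more than 0.4 for Jag1 (-0.65), Hes1 (-0.85), Hey1 (-1.21) and Gja1 (-0.44), and for the other 6 it lay between 0.00 and 0.26. The Hes1 value leans on the 1 h control array at 10.09. Control Hes1 was at 8.28 and 8.51 at 2 and 3 h and at 8.11 at 16 h. All these 16 h differences rest on 1 array per group, and less of a transcript per cell and fewer cells that express it cannot be told apart in such samples. In bulk RNA of the same 16 h arrays the mean level of 9 mesenchymal markers was 8.71 on the deprived array and 9.73 on the control array. That of 11 neuronal markers was 6.67 on the deprived array and 6.88 on the control array. Within that list Stmn2 differed by -1.44 and Snap25 by 0.20, both named after their values were seen. The astrocyte list was at 6.56 on the deprived array and 6.90 on the control array. The oligodendrocyte lineage, hypothalamic and endothelial lists were also lower on the deprived array, and the microglial list was higher (6.21 against 6.17). The part of any of these lists in the 16 h values was not tested.

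**Figure D3:**
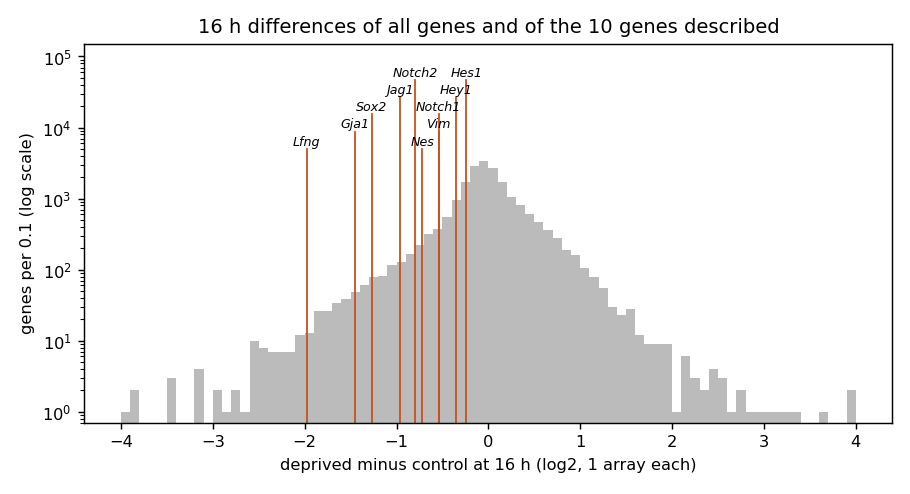
Histogram of deprived minus control at 16 h over all 19938 genes (log2, 1 array per group, gene counts on a log scale), with the 10 genes marked by vertical lines. Their values run from -1.98 for Lfng to -0.24 for Hes1.

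A fit over all 16 arrays with treatment as a term asked which genes differed between 16 h and the mean of 1, 2 and 3 h, averaged over deprived and control cells. It called 898 genes (4.5% of all), 250 higher and 648 lower at 16 h, or 602 higher and 689 lower after a second quantile normalization. The 10 genes were chosen on these same arrays, so their changes in this fit are a description, with no test. The change was -1.20 for Hey1, -1.13 for Jag1, -1.03 for Gja1, -0.86 for Hes1 and -0.75 for Lfng, and between -0.28 and 0.02 for the other 5. This average includes the deprived array at 16 h. The labels give no array batch, so hours and batch cannot be told apart.

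The 10 genes also varied unequally between arrays of the same group. On the arrays numbered 4, at 5 h, Notch1, Jag1, Hes1 and Hey1 were at least 0.5 above the mean of arrays 1 to 3 in both groups, as were 6.74% of all genes. Hey1 was 1.42 above on the deprived array and 1.70 above on the control array. For Hes1 these shifts were 1.12 on the deprived array and 0.82 on the control array, for Jag1 0.91 and 1.06, for Notch1 0.66 and 0.88, and for Notch2 0.40 and 0.64. Lfng, Gja1, Nes, Vim and Sox2 shifted by -0.07 to 0.39. Among the 10 genes, both receptors, the ligand and both targets thus shifted by 0.40 or more on this pair of arrays. Notch2 was under the cut of 0.5 on the deprived array. Lfng and the 4 progenitor genes shifted less, but Nes at 0.39 on the control array came close to Notch2, so no clear gap parts the 2 sets. For Notch1, Notch2, Jag1, Hes1 and Hey1 the standard error of the 5 h difference was 0.16 to 0.45, and 0.07 to 0.08 with the array number as a block. Other genes of the same roles did not all follow this split. Of 50 other Notch pathway genes 6 were raised by at least 0.5 in both groups, none of them a ligand, receptor or target gene, and 1 ligand gene, Dlk2, was lower by at least 0.5 in both. Both other receptor genes, Notch3 and Notch4, were below the mean of arrays 1 to 3 in both groups, as were 5 of 6 other ligand genes and 3 of 6 other targets. The median gene was below it too, with a shift of -0.09 on the deprived array and -0.08 on the control array. The share of all genes below in both groups is not given, so nothing is read from these counts. The target Hes5, named like Dlk2, Id3 and Fabp7 after its values were seen, shifted by -0.35 on the deprived array and -0.44 on the control array. Of 27 other progenitor genes 2 were raised by at least 0.5 in both groups, Id3 (1.39 on the deprived array and 1.73 on the control array) and Fabp7 (0.93 and 1.34), and 1, Lhx2, was lower by at least 0.5 in both. What sets these arrays apart is not stated in the labels.

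**Figure D4:**
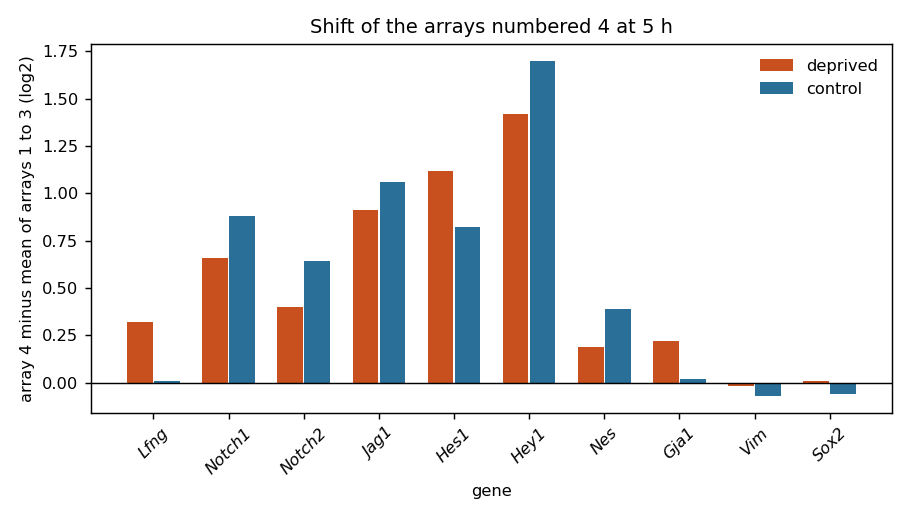
Log2 level on the 5 h array numbered 4 minus the mean of arrays 1 to 3 for each gene, with deprived cells on the left of each pair of bars and control cells on the right. Notch1, Notch2, Jag1, Hes1 and Hey1 are raised by 0.40 to 1.70 in both groups. Lfng, Gja1 and Nes shift by 0.01 to 0.39, while Sox2 and Vim stay near 0.

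The remaining parts of the pathway were followed in a list of 52 genes, 50 of them measured. The list was chosen with earlier results of these data known, so its counts and p-values are a description. At 5 h Rbpj rose and Hey2 fell, which is 1 gene in each direction against 2.41% of all genes higher and 1.7% lower. The median difference of the list was -0.03, and that of all genes -0.01. With the array number as a block 5 were higher and 5 lower, against 8.22% of all genes higher and 10% lower. None of the 6 other ligand genes, 2 other receptor genes or 9 genes of receptor cleavage passed in either fit. Of 4 genes that add sugars to Notch, including the other fringe genes Mfng and Rfng, none passed, and Rfng, named after its values were seen, was lower with the block (-0.21, adjusted p = 0.0387 in limma, against 0.392 without it and 0.0387 to 0.777 over its alternatives). Among 13 genes of endocytosis and ubiquitin transfer none passed, and with the block 4 were higher and 3 lower.

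Rbpj, the DNA-binding partner of cleaved Notch, was at 11.29, 11.29, 11.38 and 11.08 on the deprived arrays at 5 h, against 10.72, 10.68, 10.55 and 10.53 on the control arrays. The groups did not overlap, and the difference was 0.64 (standard error 0.09, adjusted p = 0.0039 in limma, and 0.000080 to 0.0966 over its alternatives). With 1 array per group the differences of Rbpj at 1, 2, 3 and 16 h were -0.43, -0.45, -0.06 and 1.10. A second, dimmer row of Rbpj, with a mean level of 5.16, differed by 0.03 at 5 h and 0.05 at 16 h. The rows thus disagreed, and the mean of both gave 0.33 at 5 h and did not pass (adjusted p = 0.0966).

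Hey2, a relative of Hey1, was at 6.56, 6.29, 6.43 and 6.45 on the deprived arrays at 5 h, against 7.06, 6.82, 6.77 and 7.12 on the control arrays. The groups did not overlap, with a difference of -0.51 (standard error 0.10, adjusted p = 0.0221 in limma, and 0.000376 to 0.0839 over its alternatives). All of these levels lie below 7.47, the median of all genes. The call ended with a second quantile normalization (adjusted p = 0.0839) and without control array 1, deprived array 2 or deprived array 3. At 16 h Hey2 was at 6.65 on the deprived array and 5.92 on the control array, a difference of 0.73 in the other direction.

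**Figure D5:**
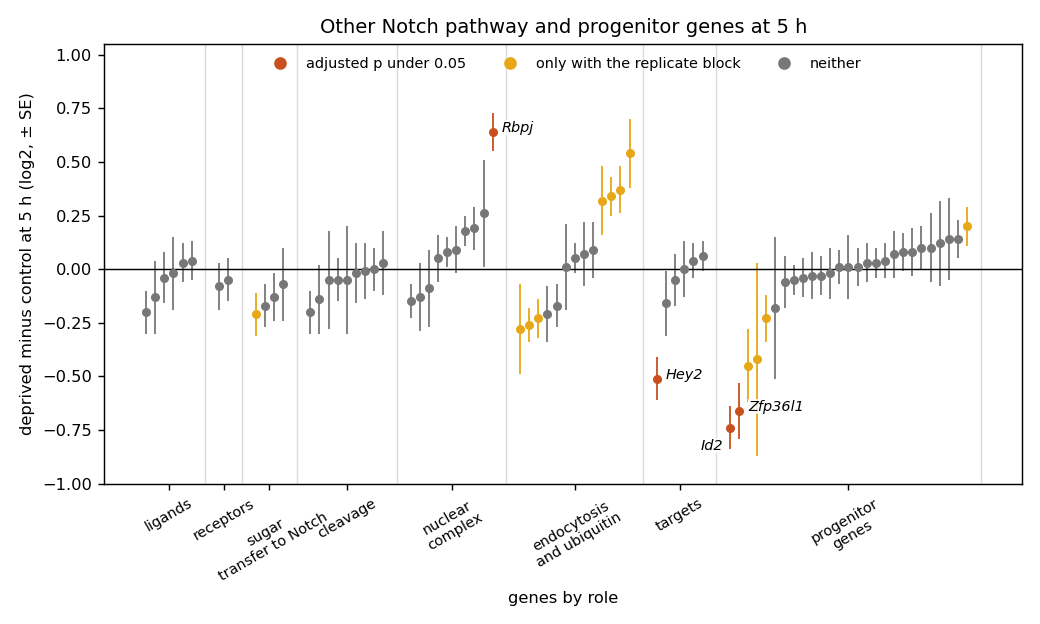
Deprived minus control at 5 h (log2, points with standard errors, n = 4 per group) for 50 other Notch pathway genes by role and 27 other progenitor genes. Rbpj at 0.64, Hey2 at -0.51, Id2 at -0.74 and Zfp36l1 at -0.66 passed without the block (red), and further genes with it (yellow).

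Among 27 measured progenitor genes of a list of 28, 2 fell at 5 h and none rose. Over all genes 1.7% were lower and 2.41% higher. With the block 5 were lower and 1 higher, against 10% of all genes lower and 8.22% higher. This list too was chosen with earlier results of these data known. Its counts and p-values at 5 h, and its counts at 16 h below, are therefore a description. The list's median difference was 0.01. Id2, which codes for an inhibitor of basic helix-loop-helix factors, was at 9.61, 9.60, 9.74 and 9.53 on the deprived arrays, against 10.46, 10.46, 10.40 and 10.11 on the control arrays. Its groups did not overlap, with a difference of -0.74 (standard error 0.10, adjusted p = 0.00285 in limma). With 1 array per group the differences of Id2 at 1, 2, 3 and 16 h were -0.34, -1.27, -1.01 and -1.99. Zfp36l1, which codes for a protein that speeds the decay of messenger RNAs, fell by 0.66 at 5 h (standard error 0.13, adjusted p = 0.019 in limma). Its call ended without deprived array 1, 2 or 3, and its differences at 1, 2, 3 and 16 h were -0.47, -0.68, -0.81 and -1.13.

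At 16 h, 5 of these 27 genes were lower by 1 or more on the deprived array, as were 2.97% of all genes, and none was higher by that much, which 1.96% of all genes were. Besides Id2 and Zfp36l1 they were Slc1a3, a glutamate transporter gene of radial glia (-2.49), Sox9, a transcription factor gene (-1.41), and Id3 (-1.26), named after their values were seen. Slc1a3 was at 9.75 on the deprived array and 12.24 on the control array at 16 h, while at 5 h it averaged 11.88 ± 0.38 in deprived cells and 11.74 ± 0.24 in control cells (SD, n = 4 each). Of the 50 other Notch pathway genes, 1 was higher by 1 or more at 16 h, Rbpj, and none was lower.

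The markers of the line itself gave a mixed picture. All 10 genes described had a mean level above 7.47, the median of all genes. They were chosen partly by their levels, so this count says nothing about the line. Outside the 10, 17 of the 27 other progenitor genes and 39 of the 50 other Notch pathway genes lay above that median. Both of these lists were chosen with earlier results of these data known. Of the mesenchymal markers 7 of 9 lay above it, and of the hypothalamic ones 3 of 9 (Otp, Sim1 and Lhx2). The hypothalamic factors Rax, Nkx2-1 and Six3 had medians of 6.75, 6.68 and 6.74. Only 2 of 11 neuronal markers (Map2 and Stmn2), 2 of 6 astrocyte markers (Aldoc and Glul) and 1 of 7 oligodendrocyte lineage markers (Pdgfra) were above that median, as were 1 of 6 microglial and none of 5 endothelial markers. Probes differ in brightness, so a level under the median does not show that a gene is off. None of the 53 markers of other cell types passed at 5 h, while Lfng, Nes and Gja1 of the 10 genes did. With the block 4 of these 53 markers were lower (Glul, Pdgfra, Col1a1 and Col1a2, named after their values were seen). That is 7.55% of these markers, against 10% of all genes. At 5 h the mean level of the mesenchymal list ran from 9.38 to 9.45 on the deprived arrays and from 9.48 to 9.63 on the control arrays, and its part in the results was not tested.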

How the data were processed

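From each sample, 250 ng of total RNA were amplified to biotin-labelled cDNA for Affymetrix arrays of whole transcripts, as the labels' protocols say. Values in the deposited table are on the log2 scale and were made by the authors with RMA, and the submitters' processing notes name RMA and limma without versions. Its background and summary settings are not given in the sources used here. Values ran from 3.07 to 14.2 with array medians of 7.02 to 7.12, and no depth applies to arrays, whose number limits the precision.

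Of 35556 rows, 21789 carried 1 gene symbol in the platform annotation (symbols updated through Entrez identifiers for 21698), 1621 carried several and 12146 none, and the last 2 kinds were left out. The row with the highest mean was kept for each of 19938 genes. Deprived and control arrays of 5 h were tested in limma 3.58.1 under R 4.3.3 (lmFit, eBayes, two-sided, Benjamini-Hochberg over all genes, threshold 0.05), without a block. Further fits took the mean difference over 1, 2, 3 and 16 h with hours as a factor, and 16 h against 1 to 3 h. The fits were tested on simulated data in which each array was drawn independently. These data had no shared shift on the arrays numbered 4 and no pairing, so the fits were not tested under such a shift. Tables and plots used Python 3.11.15, pandas 2.3.3 and matplotlib 3.10.9.

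Deviations from the group means correlated between like-numbered deprived and control arrays with 0.354, 0.584, 0.467 and 0.896, which is above 0.1 in every pair. On this ground the numbers were taken to pair the arrays, and a second 5 h fit had them as a block. The group means include the arrays numbered 4, whose deviations were much alike in both groups (0.896). Their shift enters the deviations of every other array, so the other correlations could be above 0.1 without pairing. Correlations between arrays of unlike number are not given. The pairing of the other arrays is therefore an assumption of the block fit. The reason for the numbers is not in the labels.

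The 10 genes and the lists were chosen with earlier results of these data known. Named were all 10, up to 4 list genes per direction past the threshold, and the 3 genes nearest to Lfng. The alternatives were the block, 2 other scalings, the mean of a gene's rows, brighter genes only, another variance prior and arrays left out.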

Additional observations from a re-analysis of the deposited data

Results flagged for a closer look

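Groups of 4 arrays at 5 h were searched for a lone array far from the other 3. Its gap to the nearest, over the group's range, had to be above Dixon's critical value. Such an array was found in 8 of 20 groups tested. All 8 were arrays numbered 4, and they fell on 5 of the 10 genes. The 20 groups are the 10 genes on the same arrays and are not independent, so the nominal rate of about 1 in 20 does not measure this count. The share of all genes with such an array is not given. Notch1 stood apart at 8.60 on deprived array 4 and 9.17 on control array 4. Hes1 did so at 9.69 on deprived array 4 and 9.23 on control array 4, and Hey1 at 9.13 on deprived array 4 and 9.36 on control array 4. For Notch2 (10.92) and Jag1 (11.14) it was deprived array 4 alone. The 5 h differences without both arrays were -0.35 for Notch1, 0.09 for Notch2, 0.38 for Jag1, 0.16 for Hes1 and 0.06 for Hey1.

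Jag1 ran in opposite directions at 16 h and 5 h. It was lower on the deprived array at 16 h (-0.96), while the 4 like-numbered differences at 5 h were 0.61, 0.27, 0.27 and 0.23. The difference between these times was not tested.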

How the results depend on the processing

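The 820 genes called at 5 h became 3632 with the replicate block and 2695 without replicate 4 in both groups, and 382 to 1066 with single arrays left out (382 to 521 without any one of the arrays numbered 1 to 3). The count of other Notch pathway genes, 2, was 10 with the replicate block, 4 after a second quantile normalization, 1 with the mean of a gene's rows, 9 without replicate 4 and 1 to 5 with single arrays left out (1 without control array 1, deprived array 2 or deprived array 3, 5 without control array 4). That of other progenitor genes, also 2, was 6 with the replicate block, 5 without replicate 4 and 1 to 3 with single arrays left out (1 without deprived array 1, 2 or 3, 3 without control array 4). The block changed no call of the 10 genes other than those of Notch1 and Jag1. No gene passed for the mean over 1, 2, 3 and 16 h in limma (1244 genes, 6.24%, at an unadjusted p under 0.05), against 0 to 35 with 1 time left out (35 without 16 h). The 898 genes called for 16 h against 1 to 3 h became 2506 without replicate 4 and 244 with 5 h as the earlier time. The cause of these changes was not tested.

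Over 15 alternatives the 5 h differences ran from -1.15 to -1.0 for Lfng, -0.82 to -0.72 for Gja1, -0.78 to -0.60 for Nes, -0.57 to -0.18 for Notch1 and 0.12 to 0.61 for Jag1, and Sox2 stayed between -0.21 and -0.14. Those of Notch2 (-0.07 to 0.19), Hes1 (-0.05 to 0.44), Hey1 (-0.37 to 0.41) and Vim (-0.03 to 0.01) took both signs.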
